A study of Mus musculus with 6 samples.

Results

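The nuclear genes of the mitochondrial respiratory chain were examined in sorted satellite cells, which are the resident stem cells of skeletal muscle, from control mice and from mice with a knockout of Rpt3 in those cells. Rpt3, encoded by Psmc4, is one of the ATPases of the proteasome's 19S regulatory particle. The genes were those whose array name starts as a subunit of complex I (Nduf), complex II (Sdh), complex III (Uqcr) or complex IV (Cox4 to Cox8), and the brightest probe stood for each. This gave 68 of the 34797 gene names on the array, and they had 97 probes in all. Of the 68, 35 belong to complex I, 4 to complex II, 8 to complex III and 17 to complex IV. The other 4 matched by name and are listed apart. Ndufa4 is now counted with complex IV, Ndufa4l2 is its paralogue, Cox7a2l is an assembly factor of respiratory supercomplexes, and Cox4nb is an older name of Emc8, a gene of the endoplasmic reticulum membrane complex.

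Both groups were C57BL6 mice, with 3 animals each and 1 array per animal. By the labels the knockout animals lacked Rpt3 in satellite cells only, and the other animals are labelled as controls. The Cre driver, the deleted exons, the genotype of the controls, the age and sex of the animals and the gate used for sorting are not given in the sources used here. The RNA went through whole-transcriptome amplification and then Cy3 labelling. Values below are log2 of the background-corrected signal minus the array's 75th percentile, called the log2 signal, and differences are knockout minus control on that scale. In such bulk samples, fewer cells of a type and less RNA per cell cannot be told apart.

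The respiratory chain passes electrons from NADH through complex I, or from succinate through complex II, to ubiquinone, and then through complex III and cytochrome c to complex IV, which reduces oxygen. Complexes I, III and IV pump protons across the inner mitochondrial membrane, and ATP synthase uses the resulting gradient to make ATP. Their subunits come from the nuclear and the mitochondrial genome, except for complex II, which is nuclear throughout. Quiescent satellite cells hold few mitochondria, and respiration increases when they activate and differentiate. Many of the nuclear genes carry promoter motifs of NRF1, of GABPA (an ETS factor) and of YY1.

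The sequences on which the measurements rest are shown by an example probe from each complex, placed by the array annotation on build mm9 and printed 5′ to 3′. Each of the 4 reads as an open frame. The probe of Ndufb8, a membrane-arm subunit of complex I, lies at chr19:44624855-44627199 on the minus strand, and that of Sdhb, the iron-sulfur subunit of complex II, at chr4:140529606-140529665 on the plus strand. The probe of Uqcrc1, a core protein of complex III, lies at chr9:108851008-108851487 and that of Cox7a1, the heart and muscle isoform of a complex IV subunit, at chr7:30970337-30970948, both on the plus strand. The probes of Ndufb8, Uqcrc1 and Cox7a1 each span more genome than their 60 bases and so cross an intron.
Ndufb8: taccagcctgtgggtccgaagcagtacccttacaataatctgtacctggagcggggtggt
Sdhb: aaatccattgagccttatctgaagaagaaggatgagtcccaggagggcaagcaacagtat
Uqcrc1: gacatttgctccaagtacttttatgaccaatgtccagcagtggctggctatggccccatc
Cox7a1: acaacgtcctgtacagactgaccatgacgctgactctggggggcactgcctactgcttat

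Promoters were taken from RefSeq with build GRCm38.p6, from 250 bases before to 50 bases after the annotated start, and 53 of the 68 genes matched, with 55 windows. The windows are shown as background, and no link between a motif and the array values was tested. Capitals mark matches on either strand to the palindromic NRF1 motif, with any base allowed at 1 inner position, or to CCGGAAGT (ETS, GABPA), AAGATGGC (YY1) or TCAAGGTCA (the oestrogen-related receptors), and 0 matches overlapped each other. Ndufb4, a complex I subunit, lies at chr16:37654319-37654618 with 3 NRF1 matches. Ndufs6, another complex I subunit, lies at chr13:73328433-73328732 with an NRF1 match at position -16 and a YY1 match at position 33, counted with the start base as 0. Sdha, the flavoprotein of complex II, lies at chr13:74350191-74350490 with 3 NRF1 matches, and Uqcrh, the hinge protein of complex III, at chr4:116075021-116075320 with an ETS match. All 4 windows are on the minus strand and are printed in the direction of transcription.
Ndufb4: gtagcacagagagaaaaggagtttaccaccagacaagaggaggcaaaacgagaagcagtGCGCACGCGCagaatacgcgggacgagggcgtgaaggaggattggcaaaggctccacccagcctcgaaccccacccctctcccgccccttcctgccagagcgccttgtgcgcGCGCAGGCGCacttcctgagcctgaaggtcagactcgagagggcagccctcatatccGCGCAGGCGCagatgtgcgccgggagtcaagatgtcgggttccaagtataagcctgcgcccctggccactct
Ndufs6: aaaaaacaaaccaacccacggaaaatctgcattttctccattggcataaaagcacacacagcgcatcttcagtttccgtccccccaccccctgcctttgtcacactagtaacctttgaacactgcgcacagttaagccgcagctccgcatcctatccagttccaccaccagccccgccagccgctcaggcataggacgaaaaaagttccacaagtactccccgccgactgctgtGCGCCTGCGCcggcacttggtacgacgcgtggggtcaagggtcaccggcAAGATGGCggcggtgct
Sdha: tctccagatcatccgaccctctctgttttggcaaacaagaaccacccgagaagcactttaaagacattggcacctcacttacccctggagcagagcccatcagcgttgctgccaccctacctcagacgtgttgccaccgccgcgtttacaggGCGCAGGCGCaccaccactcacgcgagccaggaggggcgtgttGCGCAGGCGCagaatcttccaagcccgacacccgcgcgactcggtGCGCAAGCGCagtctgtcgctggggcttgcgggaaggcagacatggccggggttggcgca
Uqcrh: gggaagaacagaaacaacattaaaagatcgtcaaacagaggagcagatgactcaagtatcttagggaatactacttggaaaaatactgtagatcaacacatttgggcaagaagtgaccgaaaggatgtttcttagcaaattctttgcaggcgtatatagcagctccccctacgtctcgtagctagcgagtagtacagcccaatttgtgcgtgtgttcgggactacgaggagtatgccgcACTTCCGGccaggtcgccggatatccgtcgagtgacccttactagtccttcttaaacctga

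An NRF1 match was present in 12 of the 55 windows (21.8%), against 4.6% of all 32851 promoter windows of the same length. The 12 windows belonged to 11 genes, since Ndufa5 had a pair of overlapping windows that hold the same match. A YY1 match was present in 7 windows (12.7%), against 2.75% of all windows. All 7 belonged to complex I genes (Ndufa3, Ndufa9, Ndufb8, Ndufc1, Ndufs4, Ndufs6 and Ndufs7), and each began between 22 and 38 bases after the start. ETS matches were found in 4 windows (7.27%), against 3.89%, and the oestrogen-related receptor motif in 1 window, that of Sdhd (1.82%), against 0.423%. A match describes the letters of the window and says nothing of binding. Among the 10 tested genes with an NRF1 match, 6 had a knockout-minus-control difference above 0, with a median of 0.06. Of the 7 with a YY1 match, 4 were above 0, with a median of 0.02. Of the 4 with an ETS match, 1 was above 0, with a median of -0.038. Among the 30 tested genes with a window and none of the NRF1, ETS or YY1 matches, 21 were above 0, with a median of 0.11.

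Some facts of the whole set of arrays bear on every value below. The targeted gene, Psmc4, had a log2 signal of 2.05, 2.07 and 1.54 on knockout arrays 1, 2 and 3, against 2.93, 2.61 and 2.87 on control arrays 1, 2 and 3, so it was lower on every knockout array. Its difference was -0.92 with a standard error of 0.24 (limma, adjusted p = 0.423), and whether its probe lies in the deleted part is not known. Knockout 1 and 2 were hybridised in slide row 1, and knockout 3 and the 3 controls in slide row 2, so only knockout 3 shared a row with the controls. Knockout 3 stood apart from the other arrays, at 72.0 on the first principal component (29.5% of the variance), where the others lay between -25.3 and -5.47. The second component (26.2%) had knockout 1 and 2 at 35.9 and 33.0 and control 2 and 3 at -38.5 and -42.1. Control 1, at 8.70, lay nearer to knockout 3, at 3.00, than to the other controls. Knockout 3 also had the lowest share of probes well above background, 44.2%, against 57.9% and 51.7% on knockout 1 and 2 and 53% to 53.6% on the controls. Of the 9 satellite cell markers, 6 were well above background on all 6 arrays (Myod1, Vcam1, Cdh15, Calcr, Chodl and Sdc4). Pax7 and Itga7 were so on 3 controls and 2 knockout arrays, and Myf5 on 3 controls and 0 knockout arrays. Calcr was lower on every knockout array than on every control, with a difference of -1.04 that did not pass the test (limma, adjusted p = 0.442). Calcr and Myf5 were the 2 of the 9 markers with groups apart and lower, against 5.61% of all features. Of the 9 differences, 5 were above 0 and 4 below, with a median of 0.01. The largest above 0 was that of Sdc4, at 0.49. Hba-a1, a globin of red cells, and Acta1, the actin of muscle fibres, were above background on all 6 arrays as well.

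Comparing the groups asks whether satellite cells of the knockout animals express the respiratory chain differently. Of the 68 genes, 64 were well above background on all 6 arrays, and these 64 are the genes tested. Across them, 41 had a higher mean in knockout cells and 23 a lower one. The higher share was 64.1%, against 56.3% of the 19194 features tested and 59.3% of those brighter than the 75th percentile. The median difference was 0.08, and over all features it was 0.04. None passed the test: 0 of the 64 had an adjusted p under 0.05 in limma's fit over all features, and 0 had an unadjusted p under 0.05. Over all features the same fit called 0 (0%) after adjustment. Before it, 1351 (7.04%) had a p under 0.05, made up of 2.83% higher and 4.2% lower in knockout cells. The smallest unadjusted p among the 64 was 0.0682 (limma, adjusted p = 0.774), for Uqcrfs1.

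The differences ranged from -0.53 for Cox7a1 to 0.72 for Cox6a2. Both are heart and muscle isoforms of complex IV subunits. Their probes were dim, and the size of the difference depended on the background correction. With normexp correction, an alternative, it was -0.30 for Cox7a1 and 0.36 for Cox6a2. Uqcrfs1, also dim, went from 0.62 to 0.37, and the brighter Uqcrb from 0.40 to 0.35. For 56 of the 64 genes (87.5%) the 95% interval of the difference lay within 1 of 0 on the log2 scale, which is a change of less than 2-fold in either direction. This was so for 62.9% of all features and for 77.3% of those brighter than the 75th percentile. The intervals that reached past 1 belonged to Ndufv3, Ndufa5, Ndufa8, Uqcrc1, Uqcrfs1, Cox6a2, Cox7a1 and Ndufa4. The groups did not overlap for 3 of the 64 genes, against 10.7% of all features. On the reported probes, Ndufa7 and Uqcrb were higher in every knockout array (5.08% of all features were). Ndufb10 was lower in every one (5.61%). The probe of Ndufa7 lies at chr17:33975141-33975200, that of Uqcrb at chr13:67001665-67001724 and that of Ndufb10 at chr17:24859019-24859078 in mm9. An exact permutation test gave p = 0.1 for each of the 3, and groups of this size can give no smaller value. Groups that do not overlap always give this value, so it adds nothing to the separation.

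**Figure D1:**
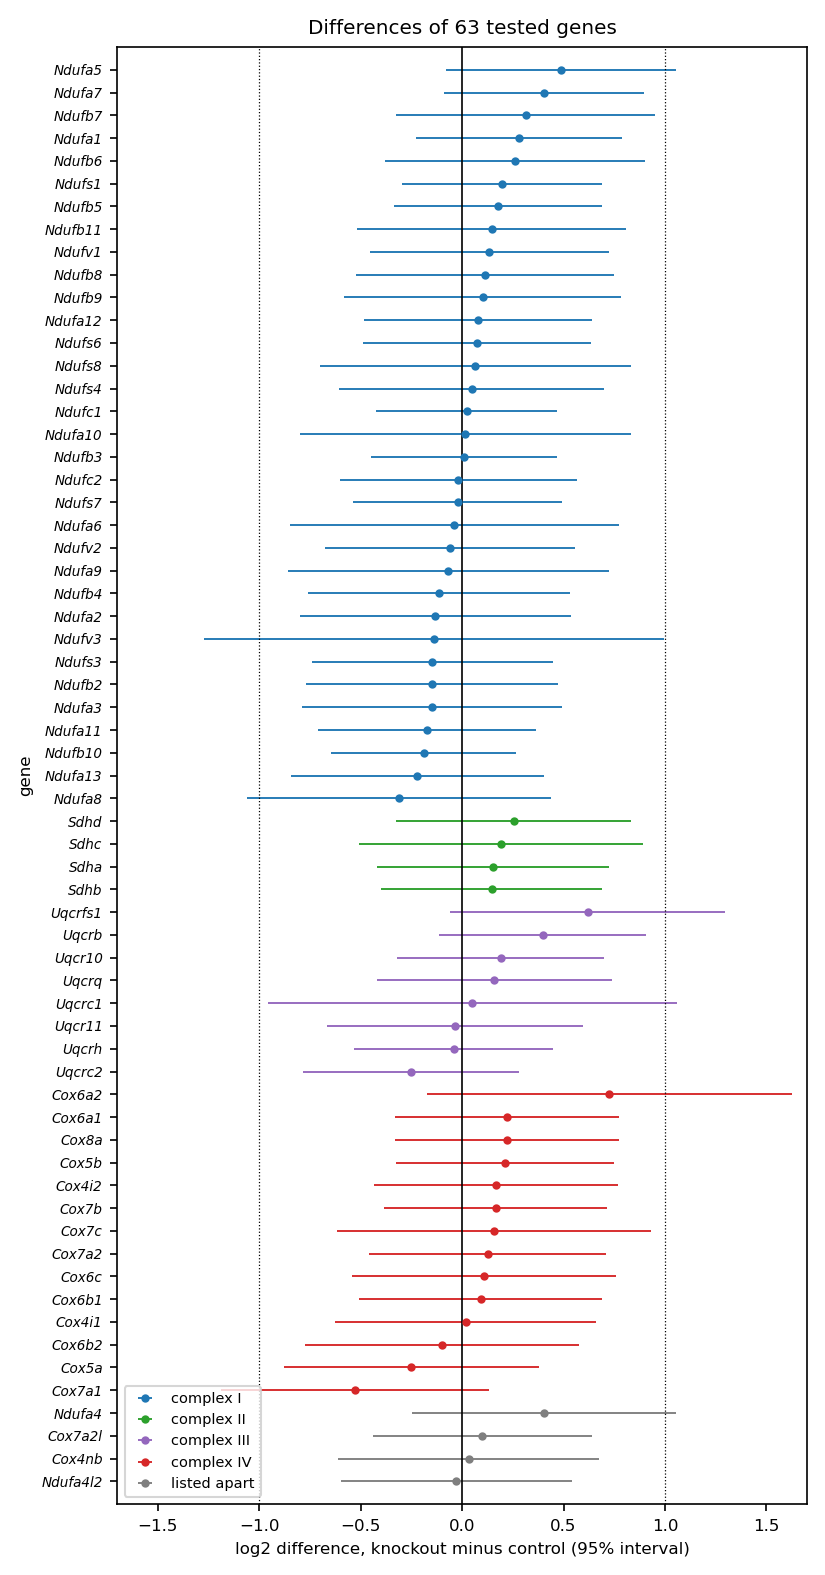
Each point is the log2 difference (knockout minus control, 3 arrays each) of 1 tested gene (63 of the 64 are drawn) and each line its 95% interval from limma. Colours mark the complexes and dotted lines a change of 2-fold. Every interval crosses 0, and the points lie between -0.53 and 0.72.

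Complex I, the NADH dehydrogenase and the largest complex of the chain, had 34 tested genes with a median difference of 0.01, of which 18 lay above 0 and 16 below. Its 7 nuclear-encoded core subunits, which bind NADH and carry electrons over iron-sulfur clusters to ubiquinone, had a median of -0.02. The 12 tested accessory subunits of the Ndufa series had a median of -0.05, and the 10 of the Ndufb series, which sit in the membrane arm, a median of 0.11. Ndufs5 was the 1 gene of the complex whose probe was not well above background on any array, and it was not tested.

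Among the core subunits, Ndufv1, which binds NADH, had a log2 signal of 1.52, 1.19 and 0.79 on knockout arrays 1, 2 and 3, against 1.14, 1.14 and 0.82 on control arrays 1, 2 and 3. Here knockout 1 and 2 lay above every control and knockout 3 below every control. Ndufs1, the largest iron-sulfur subunit, was at 2.22, 2.24 and 1.97 on knockout arrays 1, 2 and 3, against 1.75, 2.11 and 1.97 on control arrays 1, 2 and 3, and its difference was 0.20 with a standard error of 0.21.

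The largest positive difference in complex I was that of Ndufa5, an accessory subunit of the matrix arm. Its log2 signal was 3.50, 3.39 and 2.90 on knockout arrays 1, 2 and 3, against 3.00, 2.63 and 2.70 on control arrays 1, 2 and 3. Knockout 1 and 2 were above all controls and knockout 3 lay within their range. The difference was 0.49 with a standard error of 0.24 and a 95% interval from -0.08 to 1.05 (limma, adjusted p = 0.805). Ndufa7, also of the matrix arm, was at 3.21, 3.23 and 2.91 on knockout arrays 1, 2 and 3, against 2.87, 2.67 and 2.58 on control arrays 1, 2 and 3. Its lowest knockout array and highest control array were 2.91 and 2.87, so the groups were separated by a small gap. Knockout cells averaged 3.11 ± 0.18 and controls 2.71 ± 0.15 (SD, n = 3 each), a 1.32-fold difference.

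Ndufa1, an X-linked membrane-arm subunit, had a log2 signal of 0.83, 1.07 and 1.33 on knockout arrays 1, 2 and 3, against 0.89, 0.80 and 0.71 on control arrays 1, 2 and 3. Unlike most of the genes it was highest in knockout 3, and knockout 1 lay among the controls. Ndufb7, a subunit on the intermembrane-space face, was at 3.01, 2.76 and 2.15 on knockout arrays 1, 2 and 3, against 2.45, 2.11 and 2.43 on control arrays 1, 2 and 3, with knockout 3 near the lowest control. Ndufb6, a membrane-arm subunit, was at 2.20, 2.04 and 1.83 on knockout arrays 1, 2 and 3, against 1.25, 1.96 and 2.08 on control arrays 1, 2 and 3. Control 1 was the lowest array, the other controls lay within the knockout range, and the difference was 0.26.

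Of the complex I genes with a lower mean in knockout cells, Ndufa8 had the most negative difference, -0.31 with a standard error of 0.32. Ndufa8 is a small disulfide-bonded subunit of the intermembrane space, with a log2 signal of 1.08, 1.04 and 0.24 on knockout arrays 1, 2 and 3, against 1.36, 1.31 and 0.62 on control arrays 1, 2 and 3. Knockout 3 was the lowest array and control 3 the next. Ndufb10, of the same kind, was at 3.34, 3.45 and 3.21 on knockout arrays 1, 2 and 3, against 3.54, 3.51 and 3.51 on control arrays 1, 2 and 3. All 3 knockout arrays lay below the controls, which were between 3.51 and 3.54, and the difference was -0.19 with a standard error of 0.20. Ndufa13, also known as GRIM-19, was at 3.49, 3.27 and 2.60 on knockout arrays 1, 2 and 3, against 3.34, 3.33 and 3.36 on control arrays 1, 2 and 3. Its controls were nearly identical and its knockout arrays spread around them, with knockout 3 lowest. Ndufa11, a membrane-arm subunit, was at 1.24, 0.95 and 0.75 on knockout arrays 1, 2 and 3, against 1.40, 0.99 and 1.08 on control arrays 1, 2 and 3, and the groups overlapped.

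Complex II, succinate dehydrogenase, had 4 genes, and all 4 had differences above 0, between 0.15 and 0.25, with a median of 0.17. None passed the test, and with slide row as a block all 4 differences were below 0, from -0.24 to -0.0037. Sdha, the flavoprotein that oxidises succinate, had a log2 signal of 0.42, 0.44 and 0.08 on knockout arrays 1, 2 and 3, against -0.08, 0.03 and 0.53 on control arrays 1, 2 and 3. Sdhb, which carries the electrons onwards, was at 0.50, 0.19 and 0.10 on knockout arrays 1, 2 and 3, against 0.19, -0.18 and 0.33 on control arrays 1, 2 and 3. Knockout 1 was above 2 of the controls for Sdha and above all 3 for Sdhb, and knockout 3 lay inside the control range for both. The membrane anchor Sdhc was at 1.86, 1.58 and 1.08 on knockout arrays 1, 2 and 3, against 1.46, 1.62 and 0.85 on control arrays 1, 2 and 3. The other anchor, Sdhd, was at 0.15, -0.28 and -0.45 on knockout arrays 1, 2 and 3, against -0.60, -0.58 and -0.17 on control arrays 1, 2 and 3, with knockout 1 the highest array and a difference of 0.25 with a standard error of 0.25 (limma, adjusted p = 0.976). In none of these 4 genes was knockout 3 the lowest array.

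Complex III, the cytochrome bc1 complex, had 8 tested genes with a median difference of 0.10, 5 above 0 and 3 below. Uqcrfs1, the Rieske iron-sulfur protein and a catalytic subunit, had a log2 signal of 0.21, 0.26 and -0.47 on knockout arrays 1, 2 and 3, against -0.27, -0.97 and -0.61 on control arrays 1, 2 and 3. Knockout 1 and 2 were above all controls and knockout 3 lay between control 1 and control 3. The difference was 0.62 with a standard error of 0.29, with a 95% interval from -0.06 to 1.30, and the exact permutation p was 0.2. Uqcrb, a small subunit at the ubiquinone-binding end, was at 5.70, 5.78 and 5.28 on knockout arrays 1, 2 and 3, against 5.25, 5.15 and 5.16 on control arrays 1, 2 and 3. On this probe every knockout array was above every control array, and the closest pair was knockout 3 with control 1. Knockout cells averaged 5.59 ± 0.27 and controls 5.19 ± 0.06 (SD, n = 3 each), a 1.32-fold difference (limma, adjusted p = 0.849). Both further probes of Uqcrb had differences above 0, at 0.38 and 0.45, but their groups overlapped. On them knockout 3 was at 4.76 and 4.59, below the highest controls at 4.87 and 4.61.

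The 2 core proteins of complex III, which do not carry electrons, differed in their order of arrays. Uqcrc2 had a log2 signal of 2.97, 3.04 and 2.56 on knockout arrays 1, 2 and 3, against 3.04, 3.31 and 2.97 on control arrays 1, 2 and 3, with knockout 3 lowest and control 2 highest. Uqcrc1 was at 0.30, 0.65 and -0.69 on knockout arrays 1, 2 and 3, against 0.67, 0.06 and -0.61 on control arrays 1, 2 and 3, and both groups spanned more than 1 on the log2 scale. Their differences were -0.25 and 0.05. Uqcrh, the hinge protein, known for aiding the contact of cytochrome c1 with cytochrome c, was at 3.83, 3.97 and 3.60 on knockout arrays 1, 2 and 3, against 3.77, 3.99 and 3.76 on control arrays 1, 2 and 3, with knockout 3 lowest. The differences of Uqcr10, Uqcr11 and Uqcrq, 3 further small subunits, were 0.19, -0.04 and 0.16. Both further probes of Uqcr10 had the opposite sign, at -0.15 and -0.19. The further probe of Uqcr11 was at 0.01 and that of Uqcrq at 0.21.

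Complex IV, cytochrome c oxidase, had 14 tested genes with a median difference of 0.14, 11 above 0 and 3 below. Several of its subunits exist as a general form and as a form restricted to some tissues. The 6 general isoforms, Cox4i1, Cox6a1, Cox6b1, Cox7a2, Cox7b and Cox8a, all had differences above 0, from 0.02 to 0.22, with a median of 0.15, and with slide row as a block all 6 were below 0, from -0.54 to -0.10. The 4 tested tissue isoforms, Cox4i2, Cox6a2, Cox6b2 and Cox7a1, were 2 above and 2 below 0, with a median of 0.04. Cox7b2 and Cox8b were not well above background on any array, and Cox8c was so on 1 array, control 2. These 3 genes, known from testis or from heart and muscle, were not tested.

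The muscle isoforms are of interest because differentiating muscle replaces the general forms with them. Cox6a2 had a log2 signal of 0.01, -0.09 and -1.42 on knockout arrays 1, 2 and 3, against -1.41, -1.21 and -1.05 on control arrays 1, 2 and 3. Knockout 1 and 2 were well above every control, and knockout 3 was the lowest array. The difference was 0.72 with a standard error of 0.39, with a 95% interval from -0.17 to 1.62 (limma, adjusted p = 0.833). Its general partner Cox6a1 was at 4.47, 4.24 and 3.87 on knockout arrays 1, 2 and 3, against 4.11, 3.78 and 4.03 on control arrays 1, 2 and 3, in the same order over the knockout arrays and with a smaller difference of 0.22.

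Cox7a1 had its lowest values where Cox6a2 had its highest. Its log2 signal was -0.01, -0.30 and 0.55 on knockout arrays 1, 2 and 3, against 0.92, 0.41 and 0.49 on control arrays 1, 2 and 3, so that knockout 1 and 2 were below every control and knockout 3 was inside their range. The difference was -0.53 with a standard error of 0.29, with a 95% interval from -1.19 to 0.13 (limma, adjusted p = 0.836). Its general partner Cox7a2 was at 4.69, 4.73 and 4.12 on knockout arrays 1, 2 and 3, against 4.41, 4.16 and 4.59 on control arrays 1, 2 and 3, with knockout 1 and 2 the highest arrays and knockout 3 the lowest. The 2 muscle isoforms therefore had differences of opposite sign, and neither passed the test.

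Cox4i1, the general form of the first nuclear subunit to join the complex, was at 5.41, 5.32 and 4.53 on knockout arrays 1, 2 and 3, against 5.12, 5.11 and 4.98 on control arrays 1, 2 and 3. Its knockout arrays averaged the same as the controls, at 5.08 ± 0.49 against 5.07 ± 0.08 (SD, n = 3 each), with knockout 1 and 2 above the controls and knockout 3 below them. Cox4i2, a lung and hypoxia-associated form, was at 0.25, 0.37 and 0.47 on knockout arrays 1, 2 and 3, against 0.18, -0.22 and 0.61 on control arrays 1, 2 and 3. Cox6b2, known from testis, was at 2.32, 2.07 and 1.36 on knockout arrays 1, 2 and 3, against 2.24, 1.91 and 1.90 on control arrays 1, 2 and 3, and the general form Cox6b1 at 4.02, 3.87 and 3.32 on knockout arrays 1, 2 and 3, against 3.83, 3.41 and 3.71 on control arrays 1, 2 and 3. For both Cox6b forms knockout 3 was the lowest array. Cox7b was at 4.68, 4.42 and 4.07 on knockout arrays 1, 2 and 3, against 4.38, 4.06 and 4.23 on control arrays 1, 2 and 3.

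Cox8a, the general form of the smallest subunit, had a log2 signal of 5.66, 5.67 and 5.08 on knockout arrays 1, 2 and 3, against 5.24, 5.18 and 5.33 on control arrays 1, 2 and 3. Knockout 1 and 2 were above every control and knockout 3 below every control. Cox5a, a matrix-side subunit with no isoform pair among these genes, was at 1.53, 1.76 and 1.43 on knockout arrays 1, 2 and 3, against 2.09, 2.06 and 1.32 on control arrays 1, 2 and 3. Control 1 and 2 were the highest arrays there, and the difference was -0.25 with a standard error of 0.27. Cox5b, Cox6c and Cox7c had differences of 0.21, 0.11 and 0.16.

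**Figure D2:**
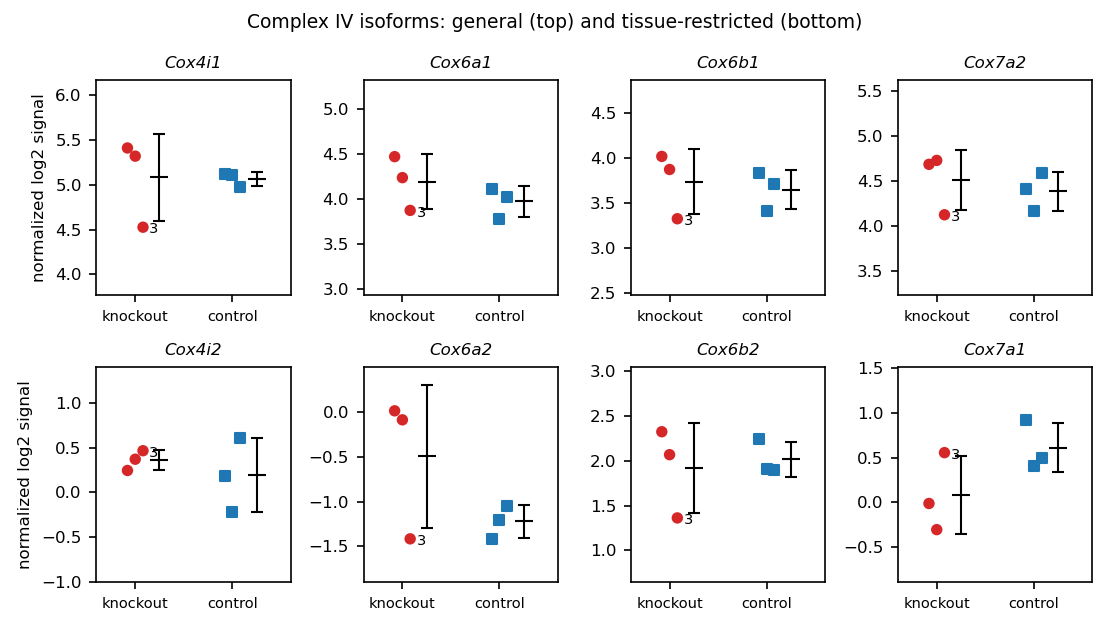
Normalized log2 signal of the general (top) and tissue-restricted (bottom) isoforms of complex IV in 3 knockout (red circles) and 3 control arrays (blue squares), with the mean and SD beside each group and knockout 3 marked. Each panel has its own axis, since levels of different probes are not comparable. In 5 of the 8 panels knockout 3 is the lowest of the 6 arrays, and Cox7a1 has knockout 1 and 2 at the bottom.

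Among the genes listed apart, Ndufa4 had a log2 signal of 2.21, 2.09 and 1.47 on knockout arrays 1, 2 and 3, against 1.54, 1.81 and 1.21 on control arrays 1, 2 and 3. Knockout 1 and 2 were above every control, and the difference was 0.40 with a standard error of 0.28. Ndufa4l2, a hypoxia-inducible paralogue, was at 0.01, 0.34 and -0.02 on knockout arrays 1, 2 and 3, against -0.17, 0.12 and 0.47 on control arrays 1, 2 and 3, with overlapping groups and a difference of -0.03. Cox7a2l and Cox4nb had differences of 0.10 and 0.03.

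The median of the respiratory genes varied more among the knockout arrays than between the means of the 2 groups. Knockout 3 was the lowest of the 6 arrays for 35 of the 64 genes (54.7%), against 26.3% of all features and 31.7% of the 10954 features brighter than the 75th percentile. Knockout 1 was the highest for 33 genes (51.6%), against 16.6% of all features and 19.1% of the brighter ones. Centred on each gene's own mean, the median of the 64 genes was 0.26, 0.16 and -0.31 on knockout 1, 2 and 3, and 0.04, -0.07 and -0.03 on control 1, 2 and 3. Over all features the same medians lay between -0.02 and 0.03. The share of probes well above background had the same order over the knockout arrays, 57.9%, 51.7% and 44.2%, and its part in the pattern was not tested.

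Knockout 3 was below every control for 36 of the 64, against 32% of all features and 36.4% of those brighter than the 75th percentile. Knockout 1 and 2 were both above every control for 25, against 15.4% and 18.8%. Both held at once for 16 genes, against 5.35% and 7.6%. Among these 16 were Ndufb8, Ndufs6, Uqcrq, Cox4i1, Cox7a2 and Cox8a. The SD among knockout arrays was wider than that among control arrays for 51 of the 64 genes (79.7%), against 62.8% of all features. The median SD of the 64 was 0.37 in knockout and 0.19 in control cells, against 0.34 and 0.26 over all features and 0.30 and 0.19 over those brighter than the 75th percentile, of which 68.5% had the wider spread in knockout cells. All 8 genes of complex III and 28 of the 34 of complex I had the wider spread in knockout cells, but only 1 of the 4 of complex II.

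**Figure D3:**
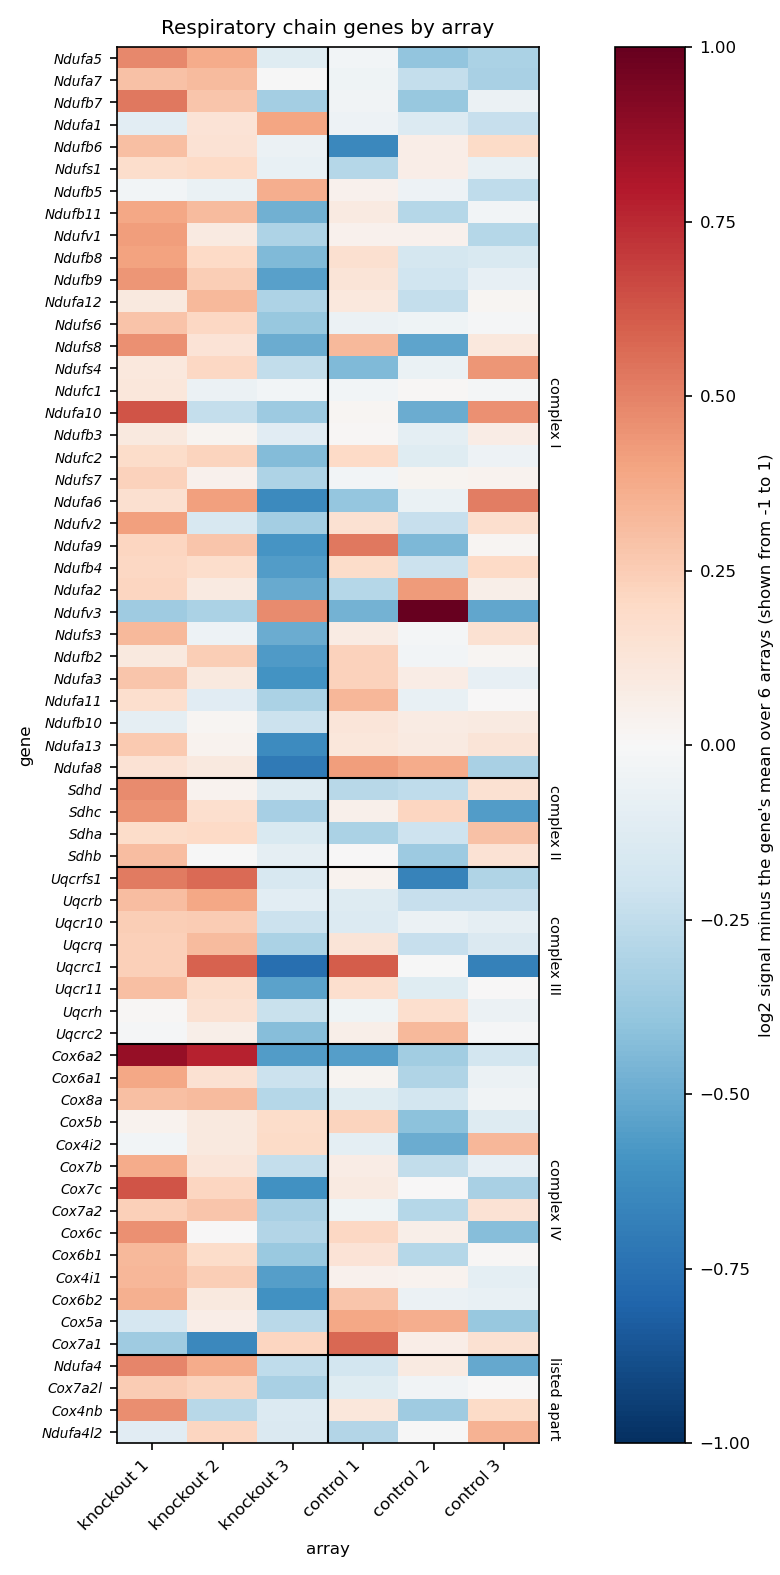
Log2 signal of 63 of the 64 tested genes minus each gene's mean over the 6 arrays, by array, with genes grouped by complex and ordered by difference. Red is above and blue below the gene's mean, and the scale is clipped at 1. The knockout 1 and 2 columns are mostly red and the knockout 3 column mostly blue, with Ndufa1, Ndufb5, Ndufv3 and Cox7a1 among the exceptions.

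Each complex was lower on knockout 3 than on the other knockout arrays. The centred median of complex I was 0.21, 0.13 and -0.34 on knockout 1, 2 and 3, that of complex III 0.24, 0.29 and -0.27, and that of complex IV 0.33, 0.14 and -0.29. Complex II was at 0.38, 0.10 and -0.14, and its control 2 was lower, at -0.23. Leaving out knockout 3, 56 of the 64 genes had a higher mean in knockout than in control cells, with a median difference of 0.24, while over all features 52.3% were higher and the median was 0.02. With slide row as a block, which rests on knockout 3 against the 3 controls, 53 of the 64 were lower and the median was -0.25, while over all features 50.1% were higher and the median was 0.00. The sign of the set's median therefore turned with the knockout arrays that were used, and slide row cannot be told apart from the knockout arrays in each row.

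**Figure D4:**
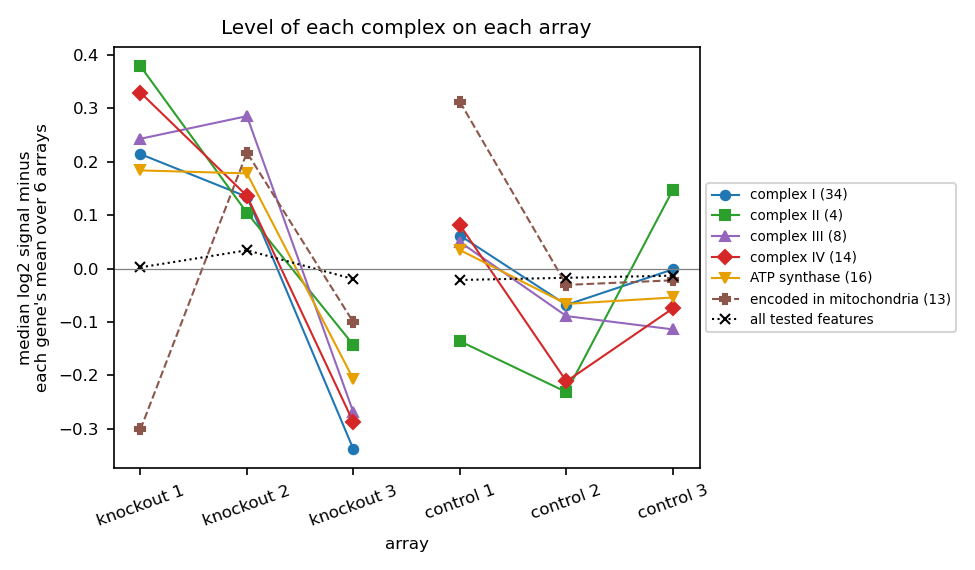
Median, over the tested genes of each group, of the log2 signal minus the gene's mean over the 6 arrays, for each array (numbers of genes in brackets). The lines of complexes I, III and IV and of ATP synthase are above 0 on knockout 1 and 2 and between -0.34 and -0.21 on knockout 3. The mitochondrially encoded subunits are lowest on knockout 1, and all tested features stay near 0.

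Without knockout 3, 9 genes had an unadjusted p under 0.05 (9.01% of all features did), and 0 passed after adjustment (limma, smallest adjusted p = 0.278). Of these 9, 8 were higher in knockout 1 and 2 (Ndufa4, Ndufa5, Ndufa7, Ndufb7, Uqcrb, Uqcrfs1, Cox6a2 and Cox8a), and Cox7a1 was lower. The difference of Cox6a2 was then 1.18 and that of Cox7a1 -0.77. In the fit with slide row as a block, 5 genes had an unadjusted p under 0.05 (16.4% of all features), namely Ndufa3, Ndufa13, Ndufb2, Cox4i1 and Cox6b2, and all 5 were lower in knockout 3. Again 0 passed after adjustment (limma, smallest adjusted p = 0.276). That fit assumes that knockout 3, alone in its group, varies like the other arrays.

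**Figure D5:**
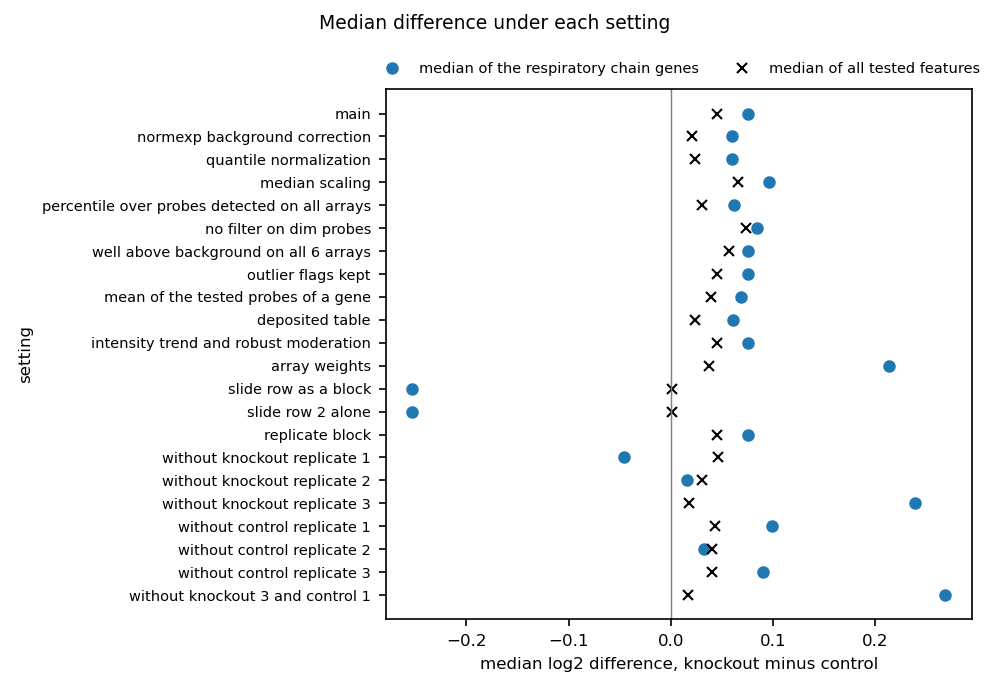
Median log2 difference of the respiratory chain genes (blue circles) and of all tested features (crosses) under the reported setting and each alternative. The genes' median lies between 0.06 and 0.10 for settings that keep all 6 arrays at equal weight and no slide row term, at -0.25 with slide row as a block or in row 2 alone, and at 0.24 without knockout 3.

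The other genes of oxidative phosphorylation gave values beside which these can be read. All 16 nuclear ATP synthase genes on the list were tested, 13 had differences above 0, and the median was 0.05. Their centred medians were 0.18, 0.18 and -0.21 on knockout 1, 2 and 3, again lowest on knockout 3. Atp5mc3, a c-ring gene, had the smallest p among those above 0, with a difference of 0.37, and Atp5f1e, the epsilon subunit, among those below 0, with -0.28. The 13 mitochondrially encoded subunits did not share the order. Their centred medians were -0.30, 0.22 and -0.10 on knockout 1, 2 and 3 and 0.31, -0.03 and -0.02 on the controls, and the median difference was -0.11 with 3 of 13 above 0. The smallest p below 0 was that of mt-Co2, with a difference of -0.28, and above 0 that of mt-Co3, with 0.08. Both encode core subunits of complex IV. The probe for mt-Nd1, a complex I subunit, had a log2 signal of 7.77, 8.30 and 7.95 on knockout arrays 1, 2 and 3, against 8.49, 8.10 and 8.15 on control arrays 1, 2 and 3. Knockout 1 was the lowest array for 9 of these 13 genes.

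Assembly factors, which build the complexes but are not part of them, had medians near 0. Of 15 complex I factors 11 were tested, with a median of -0.10 and 4 above 0. Of the 11, 4 were not well above background on all 6 arrays and passed the filter through 1 group (Ndufaf1, Ndufaf6, Ndufaf7 and Ndufaf8). Ndufaf8 was well above background in 3 knockout arrays and in 0 controls, and passed the filter through the knockout arrays alone. Its controls were not well above background, so the size of its difference is not known. With each control value raised at least to the faintest signal called well above background on its array, the gap was 1.79-fold. Ndufaf7, a methyltransferase, had a difference of -0.86, and its probe was well above background on 3 controls and 2 knockout arrays. Of 18 complex IV factors 13 were tested, with a median of -0.12 and 5 above 0. Coa5 and Cox18, which inserts part of a mitochondrial subunit into the membrane, had differences of -0.74 and -0.72 and Cox19, a copper-handling factor, 0.49. Coa5 and Cox18 were the 2 of the 13 with an unadjusted p under 0.05, against 7.04% of all features (4.2% lower), and neither passed after adjustment. Coa5 was well above background on 3 controls and 2 knockout arrays, and so passed the filter through the controls. The 4 tested complex III factors had a median of 0.02, led by Uqcc2 at 0.43 and Bcs1l, which inserts the Rieske protein, at -0.47. Of the complex II factors 2 were tested, Sdhaf1 at 0.15 and Sdhaf4 at -0.27.

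Of the 12 regulators of respiratory genes 11 were tested, and 0 passed the threshold, as in all the lists above. Their median difference was 0.05, and their centred medians on knockout 1, 2 and 3, -0.04, 0.15 and -0.02, did not follow the order of the subunits. Ppargc1a, the coactivator of mitochondrial biogenesis, had a log2 signal of -0.88, -0.88 and -0.93 on knockout arrays 1, 2 and 3, against -0.91, -1.47 and -1.89 on control arrays 1, 2 and 3. The knockout arrays lay close together with control 1 among them, and the difference was 0.52 (limma, adjusted p = 0.831). Polrmt, the mitochondrial RNA polymerase, was at -0.29, the smallest p of those with a lower mean. Nrf1, the factor of the motif above, was highest on knockout 3, at 2.26, against 1.21 to 1.54 on the other 5 arrays. Cycs, which encodes cytochrome c, had a difference of 0.17, and Cyc1, the cytochrome c1 subunit of complex III whose name the rule did not match, one of -0.01.

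Markers of other cell types varied over the same arrays, and their summed levels are given in units of the array's 75th percentile. The 5 tested mature fibre markers of 11 had centred medians of 0.21, 0.79 and -0.996 on knockout 1, 2 and 3 and 0.38, -0.28 and 0.02 on the controls, and the summed level of all 11 was 12.2 to 30.4 in knockout and 18.2 to 21.9 in control arrays. The fast myosins and creatine kinase of adult fibres were at or near background, with Myh2 and Ckm above background on 0 arrays and Myh4 on 1. Other fibre markers, Acta1, Tnnt3, Atp2a1 and Pvalb, were well above background on all 6 arrays. Their mean log2 signals were 2.57, 2.35, 1.42 and 2.29 in knockout and 2.75, 2.43, 1.72 and 1.80 in control arrays. Each had its lowest value on knockout 3. The 8 endothelial markers had centred medians of 0.39, 0.84 and -0.75 on knockout 1, 2 and 3 and 1.22, -0.58 and -1.08 on the controls, with summed levels of 29.7 to 77.2 and 28.4 to 101 in the 2 groups. The 4 tested neutrophil markers of 9 were at 0.69, 1.13 and -0.86 on knockout 1, 2 and 3 and -0.16 to -0.79 on the controls. Summed levels of the 9 were 587 to 913 in knockout and 663 to 697 in control arrays, nearly all of it from Csf3r. The 3 tested erythroid markers of 7 were at 1.40, 0.91 and 0.38 on knockout arrays and -0.06 to -1.67 on controls, with summed levels of 6.20 to 12.1 and 2.10 to 4.80. The 9 satellite cell markers were at 0.22, -0.06 and -0.40 on knockout arrays and at -0.20, 0.30 and 0.30 on controls, with summed levels of 55.2 to 74.0 and 59.3 to 69.8. The 4 tested macrophage markers of 8 were at 0.39, 0.17 and -0.03 on knockout arrays and 0.02, 0.21 and -0.31 on controls, with summed levels of 30.9 to 34.1 and 26.1 to 34.5. The 8 fibro-adipogenic markers were at 0.08, 0.09 and -0.39 on knockout arrays and 0.21, -0.20 and 0.10 on controls, with summed levels of 143 to 167 and 152 to 213. Among the tested markers, Mylpf, Emcn, Camp, S100a8, Hbb-b1 and Adgre1, like Pax7, Itga7 and Myf5, were not well above background on all 6 arrays. Each of these passed the filter through a single group. All 7 lists had their lowest knockout median on knockout 3, as the respiratory genes did, and their part in that order was not tested.

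Other probes of the same genes gave a check on the choice of the brightest. The array held more than 1 probe for 20 of the 68 genes, and 26 of their 29 further probes were tested. Of these, 7 had a difference of the opposite sign, and the largest gap to the reported probe was 0.38. The 1 further probe with an unadjusted p under 0.05, for Ndufb5, had a difference of 0.54, against 0.18 for the reported probe. For Ndufv3, Ndufa3, Ndufb2 and Ndufb5 the reported probe is annotated to an Ensembl transcript. In Ndufv3 it was highest on control 2 and knockout 3, at 1.15 and 0.42, while both further probes were lowest on knockout 3, at -1.22 and -1.04. In Ndufb5 the reported probe was highest on knockout 3, at 4.07, while a further probe was lowest there, at 0.32. In Ndufa3 the reported probe was lowest on knockout 3, at 1.89, while the further tested probe was highest there, at 1.73. For Ndufv3, Ndufb5 and Ndufa3 the order of the arrays therefore depended on the probe. Both probes of Ndufb2 were lowest on knockout 3, at 0.62 and 0.11.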

How the data were processed

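The scanner files hold 1 array each, as linear intensity that the authors' scanner software had already corrected for background and spatial trend. That software was Agilent Feature Extraction, for which the file headers name version 10.7.1.1 and the submitters' processing notes 9.5.1.1. The deposited value table also holds linear intensity, normalized between arrays, and served as an alternative. From the processed signal, log2 values were taken and each array's 75th percentile was subtracted, without control and outlier-flagged spots. The brightest probe stood for a gene, and it was tested if well above background on all 3 arrays of a group. Of 55681 probes, 2744 had no gene name.

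The groups were compared with limma 3.58.1 in R 4.3.3 over 19194 features, 2-sided, with Benjamini-Hochberg adjustment and a threshold of 0.05. Nothing says how the animals were bred or sorted, so p-values measure the spread between these samples. The number of arrays limits the precision. On data simulated 20 times for this comparison with 19193 features, 200 of them changed, the test found 7.95% of the 2-fold changes, 86.3% of the 4-fold and 98.6% of the 8-fold changes. False calls made up 5.82%. Deviations from the group mean correlated at 0.0713, -0.0168 and 0.0906 between arrays of the same number, so the numbers were not taken as pairs. Arrays correlated at 0.953 to 0.977 across features, 0 spots were saturated, and 131 to 150 spots per array carried outlier flags.

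Per-array values are given for the 5 complex I, 2 complex III and 3 complex IV genes of smallest p on either side of 0, all complex II genes, the isoform pairs of complex IV and Ndufa4l2. Each comparison list is shown by its gene of smallest p on either side of 0. Other genes were named after their values were seen. The values of 1 gene are not reported here, though it is counted in the totals. The genes and lists were chosen with earlier results of these data known. Alternatives covered normexp (offset 50), quantile and median scaling, a percentile over detected probes, other filters, flagged spots, averaged probes, the deposited table, limma's trend and robust options, array weights, slide row, the replicate block and each array left out.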

Additional observations from a re-analysis of the deposited data

How the results depend on the processing

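Under all 22 settings, the reported one included, 0 of the respiratory chain genes and 0 of the comparison list genes passed the adjusted threshold. The count of respiratory genes at an unadjusted p under 0.05, which was 0, became 2 with an intensity trend and robust moderation (Ndufa5 and Uqcrb), 7 with array weights, 5 with slide row as a block and 3 in slide row 2 alone. Of all features, 6.72%, 12.4%, 16.4% and 14.2% had such a p in these fits. With 1 array left out it ranged from 0 to 9, with 9 without knockout 3 and 1 (Uqcrfs1) without control 1, where 9.01% and 8.14% of all features had such a p. Leaving out knockout 3 and control 1 together, chosen after seeing the data, gave 7, against 11.9% of all features. With slide row as a block the median differences of complexes I to IV were -0.35, -0.047, -0.24 and -0.22, and slide row 2 alone, the same arrays, gave the same values. Without each array in turn the medians ranged from -0.11 to 0.17 for complex I, 0.05 to 0.33 for complex II, -0.043 to 0.35 for complex III and -0.01 to 0.30 for complex IV. The median of complex III was 0.35 without knockout 3 and 0.39 without knockout 3 and control 1. The replicate block gave 0 respiratory genes at either threshold and left the median at 0.08. The cause of these shifts was not tested.

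Of the 64 differences, 32 changed sign with slide row as a block, 18 without knockout 1, 15 without knockout 3, and 6 with normexp background correction. The 2 genes with groups apart and a higher mean, Ndufa7 and Uqcrb, had differences above 0 under every setting, from 0.20 to 0.59 and from 0.09 to 0.58. Ndufb10 stayed below 0, from -0.31 to -0.12. Groups that do not overlap fix the sign when arrays are left out, blocked by slide row or replicate, or weighted. For these genes a sign kept under those settings is therefore no further support. Cox6a2 ranged from -0.19 to 1.18 and Cox7a1 from -0.77 to -0.05. With 3 arrays per group, changes of 2-fold were mostly out of reach of the adjusted test.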
